A study of Mus musculus with 2 samples.

Results

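The sites examined were the sWGA peaks around 6 genes that encode transcription factors of the wider pluripotency network: Klf4, Esrrb, Tfcp2l1, Prdm14, Sall4 and Mycn. A peak was taken when its summit lay in a window fixed by mm9 coordinates around its gene, with no measured value in the rule, and 29 of the 33783 peaks of the sWGA list qualified. They fell into windows of 4 peaks for Klf4, 9 for Esrrb, 6 for Tfcp2l1, 4 for Prdm14, 5 for Sall4 and 1 for Mycn. The 6 windows covered 0.78 Mb on 4 chromosomes and were chosen with earlier results of these data known.

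Chromatin came from ZHBTc4 F-Oct4 cells, mouse embryonic stem cells in which the Oct4 that was pulled down carries a Flag tag. As background, ZHBTc4 is a line whose own Oct4 alleles are disrupted and which lives on an Oct4 transgene that tetracycline can shut off. By their descriptions both libraries began with the same anti-Flag step, in which case Flag-Oct4 chromatin is common to them. In the sWGA library the Flag eluate was taken up a second time on succinylated wheat germ agglutinin, a lectin for N-acetylglucosamine. In the control library the second step was named as IgG in 1 label, as plain agarose beads in another, and the sample was titled an input, and these descriptions were not reconciled. Each condition had 1 library, so no difference between them carries a replicate error and no p-value is given. After the caller's filters, which limit duplicates, the sWGA library kept 6129874 of 16695056 tags and the control library 78351 of 366466. The depth ratio of the kept tags was 78.2. The sWGA list was called with the control as background, and the control list of 750 regions was called the other way round.

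O-GlcNAc is a single sugar that the enzyme Ogt places on serines and threonines of nuclear and cytosolic proteins and that Oga removes. Oct4 binds DNA with Sox2 at many enhancers of embryonic stem cells, often several to a gene, and the genes examined here are among the factors that work beside them. Klf4, Esrrb and Tfcp2l1 belong to the circuit that sustains naive pluripotency. Prdm14 restrains FGF signalling and DNA methylation, Sall4 is a zinc-finger partner of Oct4, and Mycn drives growth and proliferation. In fixed chromatin the lectin can hold a fragment through any glycosylated protein on it, so a peak marks a fragment retained by both steps and not modified Oct4 itself.

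As a set these loci held more sWGA peaks per Mb than the rest of the autosomes, and the 7 peaks of at least 30 tags lay in 4 of them. Sall4 and Mycn, which had none, held only 5 peaks and 1 peak, too few for this to set them apart. Together the windows held 37.2 peaks per Mb (exact 95% Poisson interval 24.9 to 53.4, counting error only), against 13.4 per Mb in all other autosomal sequence. This was a density ratio of 2.77 (exact Clopper-Pearson interval 1.85 to 3.98), which treats neighbouring peaks as independent. Because the windows were chosen with earlier results of these data known, the ratio and its interval are only a description. The 500 kb on both sides of the windows held 110 peaks, at 11.0 per Mb around Klf4, 14.0 around Mycn and up to 22.0 around the other loci, and against these flanks the ratio was 2.03 (1.30 to 3.08). Of the 29 peaks 8 (27.6%, interval 12.7 to 47.2) held at least 18 tags, where the whole list had 21.4%, so this share was not distinguishable from that of the list. At least 30 tags were held by 7 of the 29 peaks (24.1%, 10.3 to 43.5), against 7.66% of the list. The cut of 30 tags was added to the planned 18 with results of these data known, so this contrast is only a description. The median peak held 13 tags (interval 11 to 17) with quartiles of 11 and 27, against a list median of 11 with quartiles of 10 and 16. The list median thus equalled the lower bound of that interval. A score of at least 100, where the score is the −log10 of the caller's p multiplied by 10, was reached by 13 of the 29 peaks (44.8%, 26.4 to 64.3), against 33.9% of the list.

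**Figure D1:**
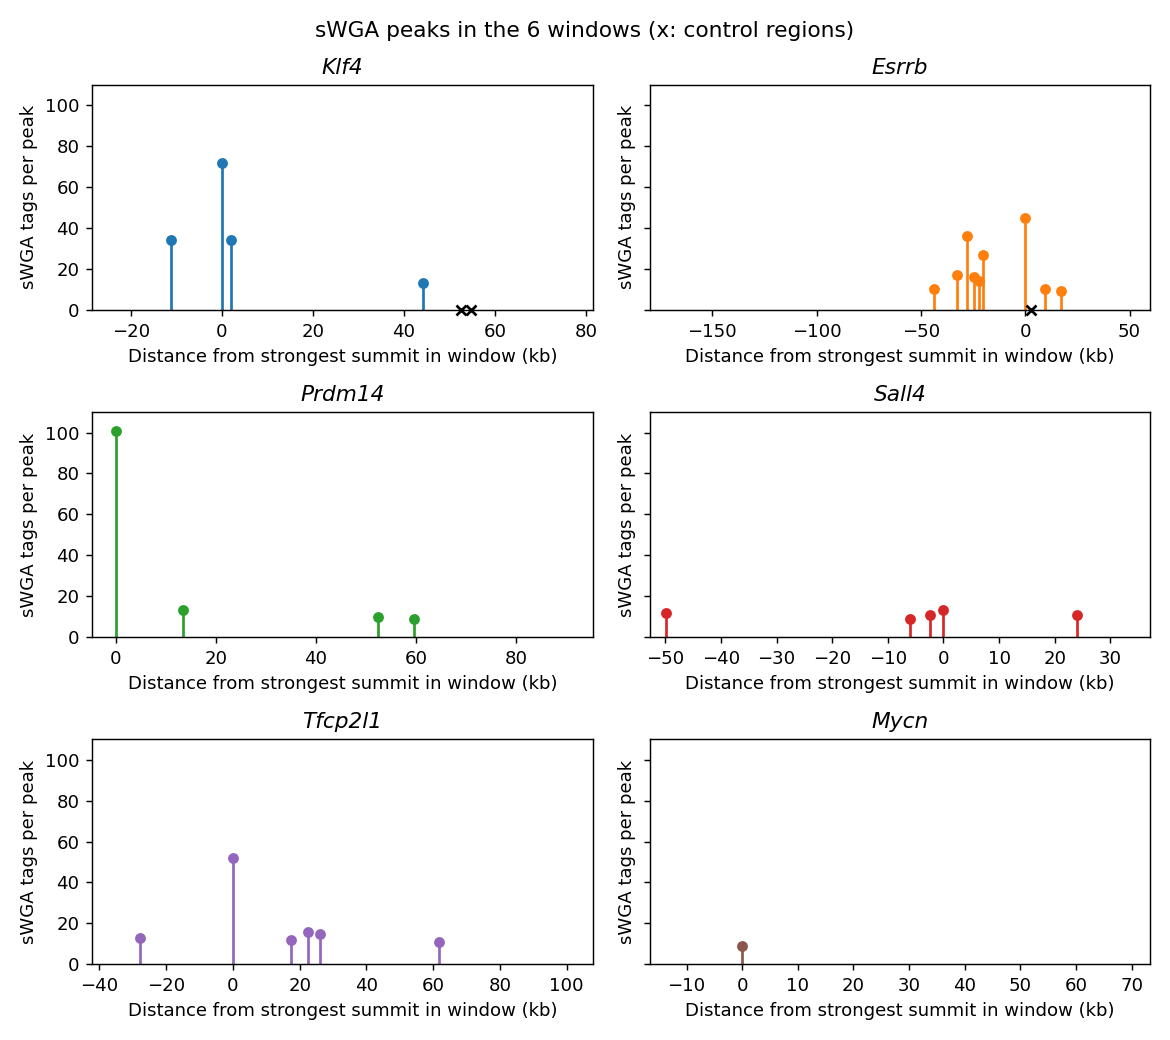
Each panel shows 1 window over its full width, with the distance of every sWGA peak from the strongest summit in the window (kb, horizontal) and its number of sWGA tags (vertical, same axis in all panels). Crosses on the baseline mark regions of the control list. Klf4 has 3 tall peaks close together, Esrrb a run of 5 neighbouring peaks and a separate tall one, Tfcp2l1 and Prdm14 1 tall peak each, and Sall4 and Mycn only low peaks of 9 to 13 tags.

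Klf4, a zinc-finger factor used in reprogramming and induced by LIF through Stat3, had 4 sites, of which 3 were strong. Its window ran from 55.46 to 55.57 Mb on chromosome 4 and was drawn to take in the gene's distal enhancers. The strongest peak, at 55488092 to 55489047, held 72 tags at a deposited fold of 70.85 and a score of 707.8, and 173 peaks of the list held more tags. It was flanked on both sides by peaks of 34 tags each. One lay at 55490183 to 55490714, with its summit 2.03 kb away, the closest pair in the window, and a fold of 47.24. The other lay at 55476943 to 55477599, with its summit 11.1 kb away and a fold of 37.39.

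These 3 peaks held 140 of the window's 153 tags within 13.1 kb. Peaks of at least 30 tags seldom stood so near each other, as 9.89% of the 2588 such peaks in the list had another within 15 kb, a distance chosen after the values were seen. The fourth Klf4 peak was 42.2 kb from the nearest of the group, which was the widest gap of the window. It was a short region of 289 bp with 13 tags, at 55532576 to 55532864. The 500 kb on each side of the window contained 11 peaks with a median of 10 tags, and the strongest had 18 tags and lay 455 kb from the window. All 3 grouped Klf4 peaks were thus stronger than anything in the flanks.

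The Klf4 window also held 2 regions of the control list. The larger, at 55542582 to 55543852, contained 24 control tags in 1271 bp, where tags spread evenly would give 0.0533, and only 12 of the 750 control regions had more. Where it lies relative to the exons of Klf4 was not determined. The smaller lay beside it at 55540942 to 55541161 with 3 control tags. Control regions of at least 24 tags made up 1.87% of the control list, so a pile of this size was uncommon among control regions. How often a window of this length holds one was not counted. The deposited folds of these regions were 1.43 and 1.42. A single control tag over the genome-wide sWGA expectation would already give 1.97, so sWGA tags must have been above their genome-wide expectation there too. By the same sign this held for at least 24.5% of the control regions, those with a fold below 1.97. The nearest sWGA peak was the 13-tag one, 9.86 kb from the larger region.

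Around that pile the sWGA list could hardly record a site. The caller multiplies each control tag by the depth ratio, so 24 control tags in its 10-kb background window weigh as much as 1878 sWGA tags. A region of the median length of 419 bp then needs 119 tags to be listed, whereas it needs 9 at the genome-wide expectation. Only 24 peaks of the list hold 119 tags or more. All 24 control tags fall inside that background window over a stretch of 8.73 kb. The lack of sWGA peaks in this stretch is therefore not a measured absence, since all but the strongest sites would go unlisted there.

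Esrrb, an orphan nuclear receptor that can replace other factors in sustaining naive cells, had the most sites, in the widest window, and the longest row of close neighbours. All 9 peaks lay in the right-hand part of the window of 87.66 to 87.90 Mb on chromosome 12, within 60.9 kb, and the first 136 kb of the window had none. The widest gap between neighbours was 19.99 kb. Between 87807237 and 87820251, 5 successive peaks had 17, 36, 16, 14 and 27 tags. Their summits were 4.65, 3.46, 2.27 and 2.17 kb apart, the last of these being the closest pair of the locus, and they spanned 12.5 kb with 110 tags. Rows of at least 5 summits with gaps of up to 5 kb took in 1.02% of all peaks. There were 59 such rows, and 22 of them, this one included, had 110 tags or more.

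The strongest peak of the row, at 87811733 to 87812203, held 36 tags and scored 368.12 at a fold of 47.24. The 27-tag peak that ended the row, at 87819615 to 87820251, had a fold of 33.46. The peak with the most tags stood apart from the row, 19.99 kb from its nearest member. It lay at 87839679 to 87840234 and held 45 tags, a number that 875 peaks of the list exceeded. Its deposited fold was nevertheless only 6.18 and its score 80.34, a score that 16762 peaks exceeded. By tags it was thus among the strong sites of the list, and by score it was an average one.

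The deposited fold and score of this Esrrb site were both met by a background of 4 control tags within 10 kb, and by no other number from 0 to 30, which places 30 of its tags at the summit. At the genome-wide expectation the same 45 tags would have scored 465. A control region of 3 tags lay 2.51 kb from the summit, at 87842446 to 87842648, with a deposited fold of 0.37. With 4 control tags in 10 kb a region of median length needs 31 tags, so sites as weak as most in this window would not have been listed beside it. The 2 peaks beyond it, of 10 and 9 tags, were scored at the genome-wide expectation.

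Tfcp2l1, a CP2-family factor that acts downstream of LIF and Stat3, combined 1 strong, narrow site with several weak ones. Its window ran from 120.48 to 120.63 Mb on chromosome 1. The strong peak, at 120522027 to 120522379, held 52 tags in only 353 bp, and its score was 474.25. Its fold of 38.76 corresponds to 47 tags at the summit over the expectation set by 1 control tag within 10 kb, so that 90.4% of its tags covered a single point. Of the 1897 peaks in the list with at least 30 tags and the genome-wide background, 3.22% were as concentrated, and their median was 64.5%. Only 5.38% of those peaks were 400 bp or shorter. This peak was therefore narrower than most sites of like strength.

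The other 5 Tfcp2l1 peaks had 11 to 16 tags. The next by tags were at 120544626 to 120544998, with 16 tags, and at 120547760 to 120548343, with 15. They formed the closest pair of the window, with summits 3.42 kb apart. The widest gap, 35.7 kb, separated the 15-tag peak from the last one. The strong peak was 17.4 kb from its nearest neighbour and carried 43.7% of the 119 tags of the locus. Within 500 kb of the window 3 peaks had more tags, the strongest with 69 tags at 343 kb.

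Prdm14, a PR-domain protein of naive cells and germ cell precursors, had the strongest site of the 6 loci. The peak at 13064072 to 13065081 on chromosome 1 held 101 tags over 1010 bp, of which 64 covered the summit, at a fold of 125.96. Its score was 1103.74. Only 48 peaks of the list held more tags and 37 scored higher. It accounted for 75.9% of the 133 tags of the window of 13.06 to 13.16 Mb, and no peak in the flanks within 500 kb exceeded 28 tags, the number held by a peak 10.1 kb outside the window. Its summit lay 4.68 kb inside the edge of the window and 13.5 kb from the next peak. The protein-coding neighbours of Prdm14 are Slco5a1 and Ncoa2 in the RefSeq annotation of GRCm38.p6, a later build, and which gene lies nearest to this peak in mm9 was not determined.

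The other Prdm14 sites were near the limit of the list. The peak at 13078078 to 13078436 held 13 tags at a score of 57.92, and that at 13117039 to 13117302 held 10 tags at 50.28, just above the caller's limit of 50. The folds of both were met by 1 control tag within 10 kb, and at the genome-wide expectation the 13-tag peak would have scored 104. The fourth peak held 9 tags. Neighbouring summits were at least 7.19 kb and at most 39.0 kb apart, so that none of the 4 peaks had another within 5 kb.

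Sall4 had the densest window and only weak sites. Its 5 peaks lay between 168.54 and 168.63 Mb on chromosome 2, at 55.6 per Mb, and held 12, 9, 11, 13 and 11 tags in order of position. The highest was at 168592678 to 168593009, where 13 tags scored 108.66 at a fold of 21.65. The next, of 12 tags at 168542720 to 168543008, had its summit 2.86 kb from the edge of the window. A peak of 11 tags at 168616506 to 168616931 had a fold of 11.81. All 5 were thus at the strength of ordinary peaks of the list.

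At Sall4 3 neighbouring peaks lay within 6.07 kb, with a closest pair 2.50 kb apart, while the widest gap was 43.9 kb. Of the 22 peaks in the flanks 9 held more tags than any in the window, the strongest having 78 tags at 155.1 kb from the window. Its peaks summed to 622 tags per Mb, whereas those of Klf4 summed to 1391.

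**Figure D2:**
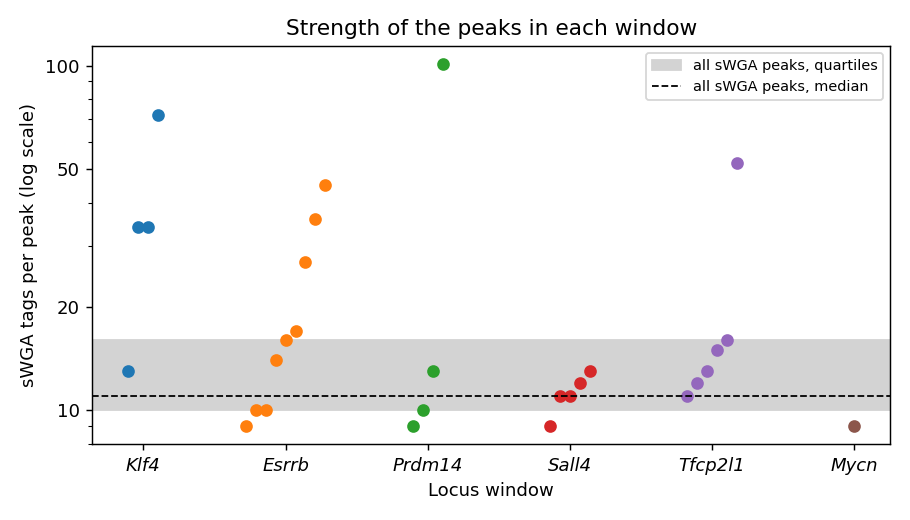
Every point is 1 of the 29 sWGA peaks, placed by locus window (horizontal) and number of sWGA tags (vertical, log scale); the dashed line is the median of all peaks of the list, 11 tags, and the grey band runs between its quartiles of 10 and 16 tags. The 7 peaks of at least 30 tags belong to Klf4, Esrrb, Prdm14 and Tfcp2l1, while Sall4 and Mycn have none above the band.

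Mycn, a Myc-family factor, had the fewest sites. Its single peak in the window of 12.90 to 12.99 Mb on chromosome 12 lay at 12916483 to 12916827 and held 9 tags, the lowest number in the list, at a fold of 15.75 and a score of 64.7. Of all tiled autosomal windows of that length 60.5% held at least 1 peak, so a count of 1 did not set the locus apart. In the flanks 11 of 14 peaks held more tags, up to 59 tags at 89.4 kb from the window. With 1 peak no spacing could be given.

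The other windows stood higher among tiled autosomal windows of their own length. At least as many peaks were found in 10.7% of tiles for Klf4, in 5.28% for Esrrb, in 6.28% for Tfcp2l1, in 8.99% for Prdm14 and in 3.34% for Sall4. The counting interval lay above the autosomal 13.4 per Mb for Esrrb (17.1 to 71.2), Sall4 (18.0 to 130) and Tfcp2l1 (14.7 to 87.1) and included it for Klf4 (9.91 to 93.1), Prdm14 (10.9 to 102) and Mycn (0.281 to 61.9). Against its own flanks of 500 kb on each side, no single window was separable, as every interval of the ratio included 1. The ratio was 1.97 (0.786 to 4.58) for Esrrb, 2.53 (0.747 to 6.83) for Sall4 and 1.82 (0.603 to 4.62) for Tfcp2l1. The order of density was Sall4 with 55.6 peaks per Mb, Prdm14 and Tfcp2l1 with 40.0 each, Esrrb with 37.5, Klf4 with 36.4 and Mycn with 11.1. None of the 5 neighbouring steps in this order was larger than its counting error. For the pair at the ends, Sall4 over Mycn, the ratio was 5.0 with an interval of 0.559 to 236, so these counts do not separate the densities of the loci.

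**Figure D3:**
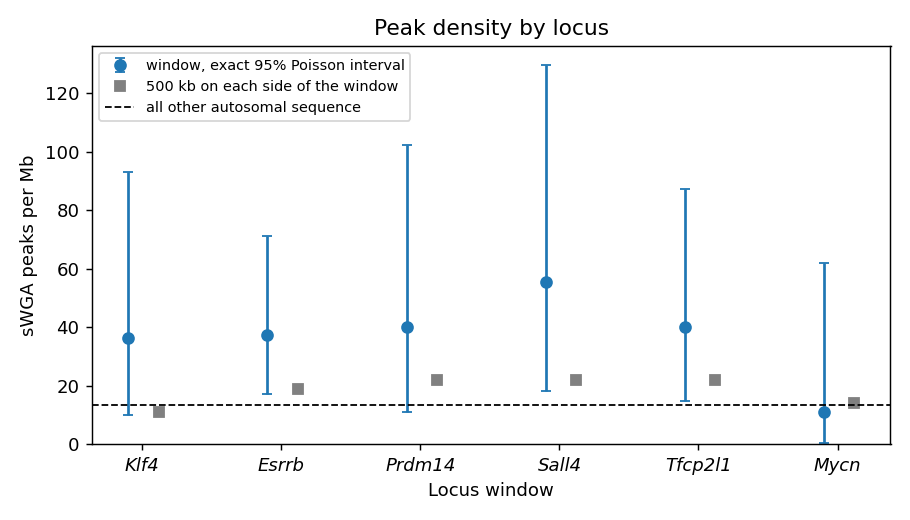
Density of sWGA peaks (peaks per Mb, vertical) in each window, as points with exact 95% Poisson intervals, beside the density in the 500 kb on each side (grey squares) and in all other autosomal sequence (dashed line, 13.4 per Mb). The points of 5 windows lie between 36.4 and 55.6 per Mb, above both references, and Mycn at 11.1 lies below them. The intervals of all windows overlap, and no single window is separable from its own flanks.

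With all listed peaks taken, the share of sites with a neighbour within 5 kb was not distinguishable from that of the list. At a score of at least 100 this share was 46.2%, against 14.4% for the list at that cut, with no interval computed. Another summit within 5 kb was found for 12 of the 29 peaks (41.4%, 23.5 to 61.1), against 25.9% of the list, and the list value lay inside the interval. This interval treats the peaks as independent, although close neighbours count each other, so it understates the error. These 12 peaks were 5 at Esrrb, 3 at Sall4, and a pair each at Klf4 and Tfcp2l1, with none at Prdm14 or Mycn. Within 1 kb there was none, where the list had 7.60%, so no pair of these peaks adjoined at that distance. Median gaps between neighbours ran from 6.04 kb at Esrrb through 11.1 kb at Klf4, 13.5 kb at Prdm14 and 13.8 kb at Sall4 to 17.4 kb at Tfcp2l1.

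A few of the peaks were scored against control tags near them. Folds that were not whole tags over the genome-wide expectation of 0.508, the sign of a local background, belonged to 4 of the 29 peaks (13.8%, 3.89 to 31.7), against 8.79% of the list. They were the strongest Esrrb and Tfcp2l1 peaks and 2 weak Prdm14 peaks. Among peaks of at least 18 tags, 22% of the list had such a background, and 2 of the 8 peaks in the windows did. At the genome-wide expectation the Tfcp2l1 peak would have scored 668. Of the 25 peaks with the genome-wide background, 12 (48.0%, 27.8 to 68.7) were calculated to pass the caller's limit with 1 control tag in 10 kb and 13 to fail. For regions shorter than 311 bp this calculation is approximate. It gave 43.3 for the 264-bp Prdm14 peak, which was listed at 50.28 with 1 control tag. The calculation was not made for every peak of the list. As a rough guide, a region of the median length of 419 bp needs 13 tags with 1 control tag. At least 13 tags were held by 37.7% of the list, a value inside the interval of 27.8 to 68.7.

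**Figure D4:**
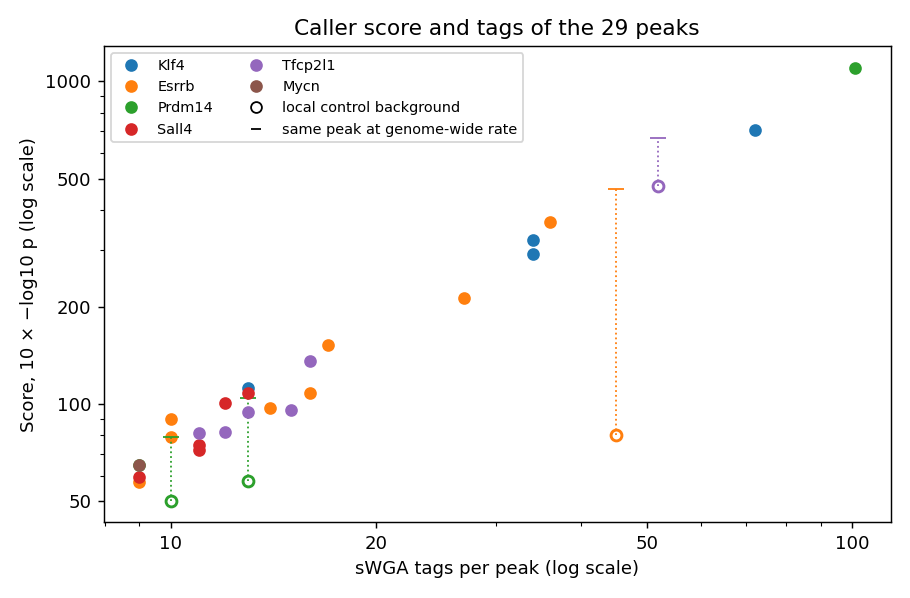
Score of each of the 29 sWGA peaks (−log10 of the caller's p multiplied by 10, vertical, log scale) against its number of sWGA tags (horizontal, log scale), coloured by locus. Filled points had the genome-wide background, and open points had control tags near them. The dash above each open point shows its score at the genome-wide expectation, which for the 45-tag Esrrb peak is 465 in place of 80.34. For the 264-bp Prdm14 peak the dash is approximate. The Mycn peak and a Prdm14 peak, both of 9 tags, lie on top of each other.

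The promoters of these genes were looked at for Oct4 recognition words in RefSeq sequences of GRCm38.p6, which cover 250 bases before and 50 after a gene's start. The table held 5 such sequences for Klf4, Esrrb, Tfcp2l1 and Mycn. None contained ATGCAAAT, the octamer, on either strand, where 1.74% of all 32851 promoters did. None contained ATGCNAAT, which includes the octamer and was found in 3.15% of promoters. With these words so rare, 5 sequences without a match are what most promoters show. The peaks are in mm9 and were not placed on these promoters, and the sequence under the peaks was not analysed here.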

How the data were processed

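The authors called regions with MACS 1.4.1, per the file headers. Its settings were a p cutoff of 1e-05 (a score of 50), a genome of 1870 Mb, fragments of 155 bp and background windows of 1 kb and 10 kb. Duplicates were held to 2 tags per position for sWGA and 1 for the control, and the control was scaled up. The submitters' processing notes give mm9 as the build. No aligner is given in the sources used here. By its name the control list is MACS's negative list, with treatment and control exchanged. Per the file headers, each side was 1 library.

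Deposited tags are unscaled counts per region, and the deposited score is the −log10 of the p-value multiplied by 10. A deposited fold is the ratio of summit tags to the background expectation, whichever of the genome-wide or local one is higher. The deposited FDR is a percent. These are the authors' values, used within their own list.

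With Python 3.11.15, numpy 2.4.6, scipy 1.17.1 and pandas 2.3.3, peaks were assigned by summit and densities compared with exact intervals. Chromosome length was the last listed position. A peak's control background was the smallest number of control tags in 10 kb that made fold times expectation a whole number of tags (within 0.01 tags beyond rounding) and, for regions of at least 311 bp, met the score within 0.02. In the windows 24 peaks were matched by fold and score and 5 shorter ones by fold alone. The calculation was also tested on simulated data with known answers. Windows, loci and thresholds were chosen with earlier results of these data known. In each locus the 3 peaks with the most tags, the closest pair and the widest gap were named. Alternatives were other thresholds, window edges, assignment and joining rules.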

Additional observations from a re-analysis of the deposited data

How the results depend on the processing

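No paired analysis was possible because sWGA and control had a single library each, which also leaves no replicate to omit. The 29 peaks became 13 at a score of at least 100 and 8 at 18 tags or more. An FDR of at most 5% left 12, but the deposited FDR rises with the score, so the peaks kept scored at most 82.15 and, of the peaks of at least 30 tags, only the 45-tag Esrrb peak remained: those of 101, 72 and 52 tags stand at an FDR of 100%. At a score of at least 100 Esrrb had 4 peaks, Prdm14 1, Sall4 2, Tfcp2l1 2 and Mycn 0, while Klf4 kept its count of 4. Widening the windows by 20 kb on both sides gave 7 peaks for Prdm14 and 4 for Mycn, so the low count at Mycn depends on the window edge; the cause was not tested. The share of peaks with another summit was 0% within 1 kb (list 7.60%) and 79.3% within 20 kb (list 53.9%). Within 5 kb it was 46.2% at a score of at least 100 (list 14.4%) and 25% at 18 tags or more (list 11.2%). The density ratio had an interval above 1 under every alternative run, and leaving out each window in turn gave 2.59 to 3.02. It ran from 2.03 (500 kb flanks, an alternative added after seeing the data) to 3.66 (score of at least 100). At an FDR of at most 5% it was 2.06 (1.06 to 3.59), but that cut kept the low-scoring peaks and is no check on the strong ones. The other values moved by less than their intervals. The median tags stayed between 12.5 and 14.5. The depth of the control is a limit, since 3 tags make a region there.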
